A study of Mus musculus with 6 samples.

Results

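The cytochrome P450 genes of family Cyp2 and subfamily Cyp3a were examined in mouse liver tumors with and without Nr2e3, which encodes an orphan nuclear receptor. Members were chosen by gene symbol alone, as every listed gene named Cyp2 or Cyp3 with a subfamily letter (a for Cyp3) and a number, leaving out pseudogenes named with the ending -ps. This gave 57 members in 14 subfamilies among the 24063 genes of the count table. RNA was sequenced from 3 WT tumors (Nr2e3+/+) and 3 Nr2e3-/- tumors of male C57BL/6 mice. All mice of both groups had received diethylnitrosamine (DEN), a liver carcinogen, at 25 mg per kg and 15 days of age, and the tumors were taken at the 24-week time point. No uninjected liver and no tissue beside the tumors was analysed here. How the knockout allele was made, and whether a library held 1 nodule or several, is not given in the sources used here.

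Cytochrome P450 enzymes are heme proteins of the endoplasmic reticulum that insert oxygen into drugs, toxins, steroids, bile acids and fatty acids, using electrons passed on by P450 oxidoreductase. The Cyp2 and Cyp3a enzymes of the liver are made mostly in hepatocytes. Many are zoned across the liver lobule, differ between the sexes, or are induced through the nuclear receptors CAR and PXR. DEN itself becomes a DNA-damaging agent only after a P450, above all Cyp2e1, has oxidized it.

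Total counts ranged from 15376261 in Nr2e3-/- replicate 1 to 28690279 in WT replicate 2. Nr2e3 had 0 counts in all 6 libraries, so its counts gave no check of the genotype. Taking 3 counts as the limit that a count of 0 allows, this corresponds to at most 0.102 to 0.199 CPM (counts scaled to 1000000 per library after TMM, the trimmed-mean normalization of edgeR), for counting error only. The 5 hepatocyte markers were detected throughout, with Alb at a mean of 114250 CPM in WT and 94536 CPM in Nr2e3-/- tumors, and 3 kidney markers summed to at most 0.132 CPM in any library. The correlation of log2 CPM across genes was 0.986 to 0.987 among WT libraries. Nr2e3-/- replicate 1 correlated better with the WT libraries (0.973 to 0.981) than with Nr2e3-/- replicates 2 and 3 (0.952 and 0.972), and the members called without it are named with the comparison. A bulk tumor library cannot tell fewer cells of a type from less RNA per cell.

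The members lie in tandem clusters, and neighbours can be nearly identical in sequence, which bears on how far their reads can be told apart. Promoter sequences of 49 members, in 52 windows, were taken from RefSeq (GRCm38.p6), and the 250 bases before the annotated start were used. Bases that lie in an exon were left out of those printed. The first shown are Cyp2j9, the member called between genotypes, on the minus strand at chr4:96591579-96591735, and Cyp2c70, whose positive log2 fold change was the largest after those of Cyp2c69 and Cyp2c40, on the minus strand at chr19:40187334-40187536. The Cyp2j9 start lies inside the outermost span of that gene, so the stretch shown is not upstream of all its annotated transcripts. Both read 5′ to 3′, with matches to the motifs named next in capitals.
Cyp2j9: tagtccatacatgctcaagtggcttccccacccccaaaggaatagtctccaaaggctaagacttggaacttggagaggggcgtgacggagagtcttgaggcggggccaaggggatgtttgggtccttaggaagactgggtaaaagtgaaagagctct
Cyp2c70: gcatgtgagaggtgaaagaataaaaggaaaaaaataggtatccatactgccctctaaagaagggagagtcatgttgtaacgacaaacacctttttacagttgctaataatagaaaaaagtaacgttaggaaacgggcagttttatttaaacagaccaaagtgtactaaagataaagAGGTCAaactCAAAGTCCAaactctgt
In Cyp2c70 the capitals mark a nuclear receptor half-site (AGGTCA) and, 4 bases further on, the letters CAAAGTCCA, a motif of HNF4, the hepatocyte nuclear receptor. The bases searched for Cyp2c70 also held the TATA box TATAAA, outside the stretch shown. The Cyp2j9 stretch holds none of the 6 motifs searched.

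Each motif was searched on both strands, and no motif is contained in another. CAAAGTCCA was found in 19.2% of the 52 member windows and in 0.384% of 32851 windows over all genes. The 10 windows with it were those of Cyp2c40, Cyp2c65, Cyp2c67, Cyp2c68, Cyp2c69, Cyp2c70, Cyp3a11, Cyp3a16, Cyp3a41a and Cyp3a41b, several of them near-copies of each other and therefore not independent. AGGTCA was found in 30.8% of member windows against 14.0% of all, and the TATA box TATAAA in 44.2% against 12.4%. The GC box GGGCGG was less frequent in member windows (11.5% against 32.7%), as was AAGTCA, the half-site of the NR2E3 type (7.69% against 13.1%). The C/EBP palindrome TTGCGCAA was in none of the member windows and in 0.164% of all. These are matches of letters and not sites shown to be bound.

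The other promoters shown are those of a pair of near-identical genes each, with the bases that differ within the pair in capitals. Cyp2a4 (plus strand, chr7:26306943-26307158) and Cyp2a5 (plus strand, chr7:26835089-26835304) were identical at 212 of 216 aligned bases, 98.1%. Their longest transcripts were 98.2% identical.
Cyp2a4: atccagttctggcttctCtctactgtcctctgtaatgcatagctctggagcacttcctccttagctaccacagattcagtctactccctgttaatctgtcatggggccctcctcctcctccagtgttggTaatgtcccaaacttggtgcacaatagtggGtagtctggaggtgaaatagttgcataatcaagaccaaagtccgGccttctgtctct
Cyp2a5: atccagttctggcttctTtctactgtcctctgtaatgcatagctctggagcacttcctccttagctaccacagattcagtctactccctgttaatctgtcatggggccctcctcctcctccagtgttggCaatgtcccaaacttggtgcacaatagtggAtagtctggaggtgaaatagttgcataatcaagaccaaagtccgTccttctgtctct
Cyp2c40 (minus strand, chr19:39812815-39813034) and Cyp2c69 (minus strand, chr19:39886800-39887019) were identical at 217 of 220 aligned bases, 98.6%, and their transcripts at 97.7%.
Cyp2c40: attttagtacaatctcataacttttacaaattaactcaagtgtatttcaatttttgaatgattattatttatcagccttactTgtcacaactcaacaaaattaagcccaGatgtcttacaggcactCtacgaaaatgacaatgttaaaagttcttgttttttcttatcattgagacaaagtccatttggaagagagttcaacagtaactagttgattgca
Cyp2c69: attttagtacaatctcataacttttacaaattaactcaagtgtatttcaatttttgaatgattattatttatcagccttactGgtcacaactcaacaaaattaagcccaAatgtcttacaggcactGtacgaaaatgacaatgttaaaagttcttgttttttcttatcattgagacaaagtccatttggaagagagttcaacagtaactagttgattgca
Of all 50-base stretches of the longest Cyp2c40 transcript, 72.1% also occurred in another Cyp2 or Cyp3a gene, most of all Cyp2c69. For Cyp2c69 the share was 54.8%, for Cyp2a4 38.0% and for Cyp2a5 40.8%. Over 20% of such stretches were shared for 21 of 56 members with a transcript sequence (19 over all transcripts of a gene), so their separate counts are less certain. Cyp2j9, Cyp2c70, Cyp2e1, Cyp2f2 and Cyp3a13 shared 0.0% on both counts. Cyp3a11 shared 6.73% over all its transcripts, its longest being a form that retains an intron.

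The 57 members together took 1.83%, 1.99% and 1.91% of the counts of WT replicates 1, 2 and 3, and 1.82%, 1.34% and 1.74% of those of Nr2e3-/- replicates 1, 2 and 3. The lowest share was that of Nr2e3-/- replicate 2, and the other libraries differed little. A filter on low counts, applied over all genes, kept 43 members of 12 subfamilies. Of the 14 left out, Cyp2j12 and Cyp2w1 had 0 counts in all libraries. The other 12 had between 1 and 29 counts in their highest library, the 29 being Cyp3a44 in Nr2e3-/- replicate 2.

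**Figure D1:**
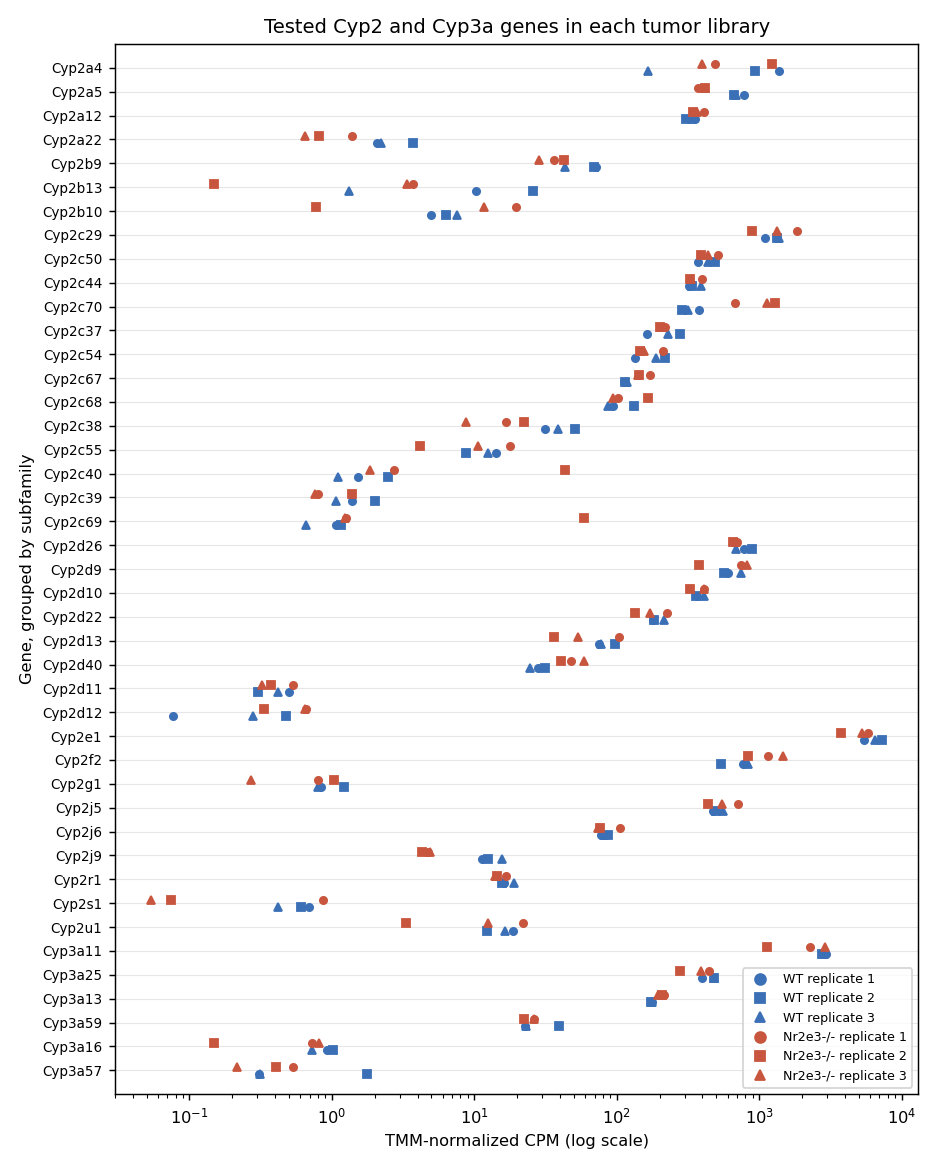
TMM-normalized CPM of the 43 tested members (log axis), 1 row per gene grouped by subfamily, with 1 point per library (WT blue, Nr2e3-/- red; the marker shape gives the replicate). Cyp2e1 and Cyp3a11 lie furthest right, and Nr2e3-/- replicate 2 (red squares) is the lowest library for 17 members and the highest for 4, among them Cyp2c69 and Cyp2c40.

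To compare genes with each other, counts were also divided by exon length (RPKM, the TMM-normalized CPM divided by the summed exon length in kilobases). On this scale Cyp2e1, which oxidizes ethanol and nitrosamines, led in WT tumors with 2972 ± 423 RPKM (SD, n = 3). The highest genes of the next subfamilies were Cyp3a11 (563 ± 18.3), Cyp2a4 (478 ± 356), Cyp2d26 (439 ± 60.0), Cyp2c29 (414 ± 47.6) and Cyp2f2 (354 ± 76.7 RPKM, SD, n = 3), whose spreads overlap except between Cyp3a11 and the last 3 of these. With the length of the longest transcript in place of all exons, Cyp3a11 had 1024 RPKM. Cyp2j5, an arachidonic acid epoxygenase, followed with 218 ± 18.2 and Cyp2b9 with 32.6 ± 8.25 RPKM. Cyp2r1, a vitamin D hydroxylase, stood at 8.02 ± 0.857 and Cyp2u1, a fatty acid hydroxylase, at 3.01 ± 0.626 RPKM. Cyp2g1, Cyp2t4 and Cyp2s1, known mainly from epithelia outside the liver, had 0.444, 0.122 and 0.116 RPKM. In Nr2e3-/- tumors Cyp2e1 was again highest at 2302 ± 491 RPKM. Cyp2f2 (568 ± 158) and Cyp2c70 (521 ± 159, against 166 ± 24.5 in WT) then had the next highest means, ahead of Cyp2c29 (443 ± 157), Cyp3a11 (412 ± 176) and Cyp2a4 (406 ± 264 RPKM, SD, n = 3), all with overlapping spreads. By the length of the longest transcript this order changed, with Cyp3a11 at 749 RPKM above Cyp2f2 at 617 and Cyp2c70 at 601 RPKM.

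The genotypes were compared to ask which P450 genes of the tumors differed in the absence of Nr2e3. By the two-sided quasi-likelihood test of edgeR (Benjamini-Hochberg adjustment over 13572 genes), 1 of 43 tested members, Cyp2j9, had an adjusted p under 0.05, where 0.0958% of all genes did and 0.0295% were lower. At an unadjusted p under 0.05 there were 12 members, 27.9% against 21.5% of all genes. Of these, 7 were higher in Nr2e3-/- tumors (all genes 11.8%) and 5 lower (all genes 9.72%). The 3 WT and 3 Nr2e3-/- libraries did not overlap for 10 members, 23.3% against 26.8% of all genes (13.9% higher and 12.9% lower). These were Cyp2c67, Cyp2c69, Cyp2c70, Cyp2d40 and Cyp3a13 on the higher side and Cyp2a5, Cyp2a22, Cyp2b9, Cyp2c38 and Cyp2j9 on the lower. The median log2 fold change over the tested members was -0.12, with 18 above and 25 below 0, beside 0.01 over all genes. Without Nr2e3-/- replicate 2 the members' median was 0.04. Of the 31 tested members with a mean of at least 10 CPM, 24 differed between genotypes by less than 0.5 on the log2 scale. The same count was not made over all genes, so it does not set the members apart from other genes.

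The number of members called depended on the test and on single libraries. DESeq2 gave an adjusted p for 42 members, and it was under 0.05 for 8 of them, 19.0%, where it called 8.00% of all genes. They were Cyp2c67, Cyp2c70 and Cyp2d40 (higher, with 4.93% of all genes) and Cyp2a5, Cyp2a22, Cyp2b9, Cyp2c38 and Cyp2j9 (lower, with 3.07%). Limma-voom with quality weights called the same genes and also Cyp2f2 and Cyp2s1, 10 in all or 23.3%, where it called 17.4% of all genes. Cyp2s1 had low counts, 18, 18 and 12 in the WT libraries and 13, 2 and 1 in Nr2e3-/- replicates 1, 2 and 3. Without a filter on low counts edgeR called Cyp2a5, Cyp2c70 and Cyp2j9 (all genes 0.372%). In edgeR, leaving out Nr2e3-/- replicate 1 gave 8 members (18.6%, all genes 21.8%), namely Cyp2a5, Cyp2a22, Cyp2c69, Cyp2c70, Cyp2d13, Cyp2d40, Cyp2j9 and Cyp2s1, and leaving out WT replicate 1, 2 or 3 or Nr2e3-/- replicate 2 or 3 gave 0.

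**Figure D2:**
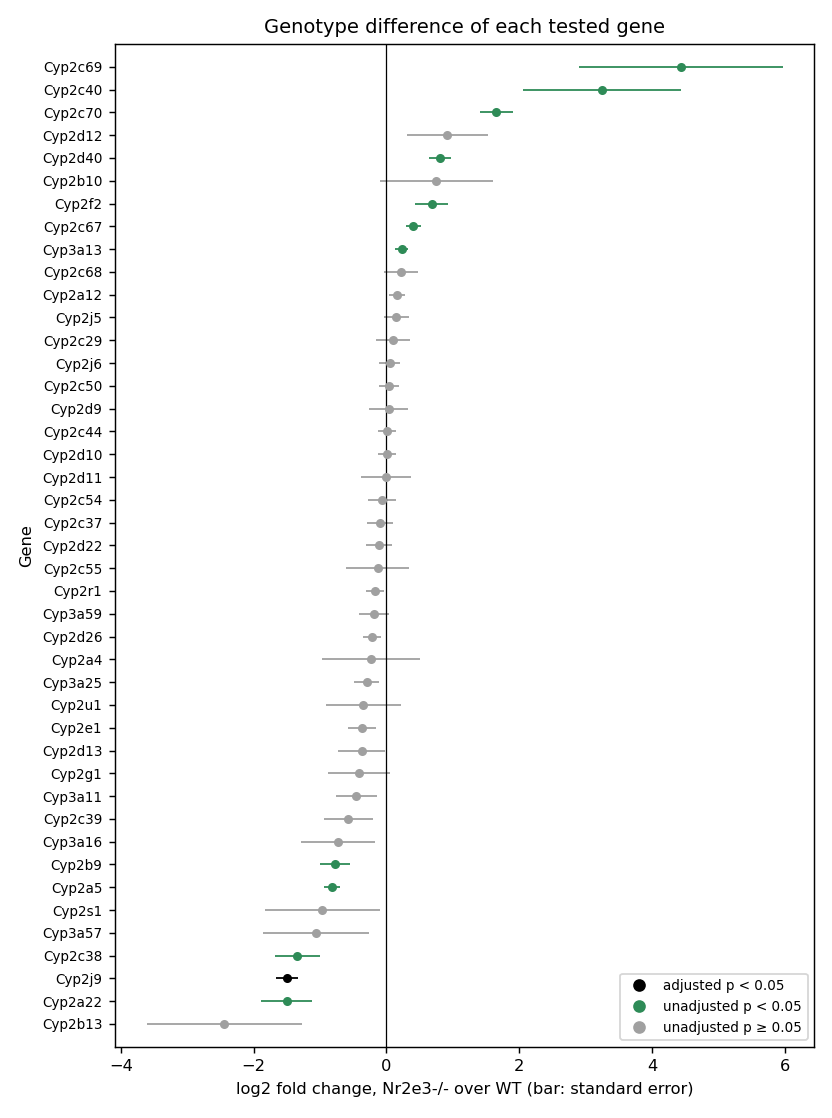
Log2 fold change of Nr2e3-/- over WT for each of the 43 tested members, with its standard error as a bar and genes sorted by size. Cyp2j9 (black) is the gene with an adjusted p under 0.05, genes in green had an unadjusted p under 0.05, and the widest bars belong to Cyp2c69, Cyp2c40 and Cyp2b13, which differ between libraries of 1 genotype.

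Some Cyp2j enzymes turn arachidonic acid into epoxides, and what the Cyp2j9 enzyme makes was not examined here. Cyp2j9 (chromosome 4, 96568424 to 96592523) had 11.3, 12.5 and 15.6 normalized CPM in the WT libraries and 4.77, 4.27 and 4.92 CPM in the Nr2e3-/- libraries. All Nr2e3-/- libraries were below all WT libraries and lay close together. Cyp2j9 fell by 1.50 on the log2 scale (standard error of the log2 fold change, SE, 0.17, edgeR adjusted p = 0.0466). The adjusted p from edgeR was 0.183, 0.286 and 0.153 without WT replicate 1, 2 or 3, 0.0910 and 0.259 without Nr2e3-/- replicate 2 or 3, and 0.00520 without Nr2e3-/- replicate 1, while the log2 fold change stayed between -1.59 and -1.36. Its neighbours on the chromosome, Cyp2j6 at 4.1 kb and Cyp2j5 at 34.9 kb, had log2 fold changes of 0.05 (SE 0.15) and 0.15 (SE 0.19), and both overlapped between genotypes. Cyp2j5 had 473, 501 and 557 CPM in WT and 710, 438 and 544 CPM in Nr2e3-/- tumors. Of the other Cyp2j genes, Cyp2j8 reached 11 counts, Cyp2j11 and Cyp2j13 reached 1 and Cyp2j12 had 0.

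**Figure D3:**
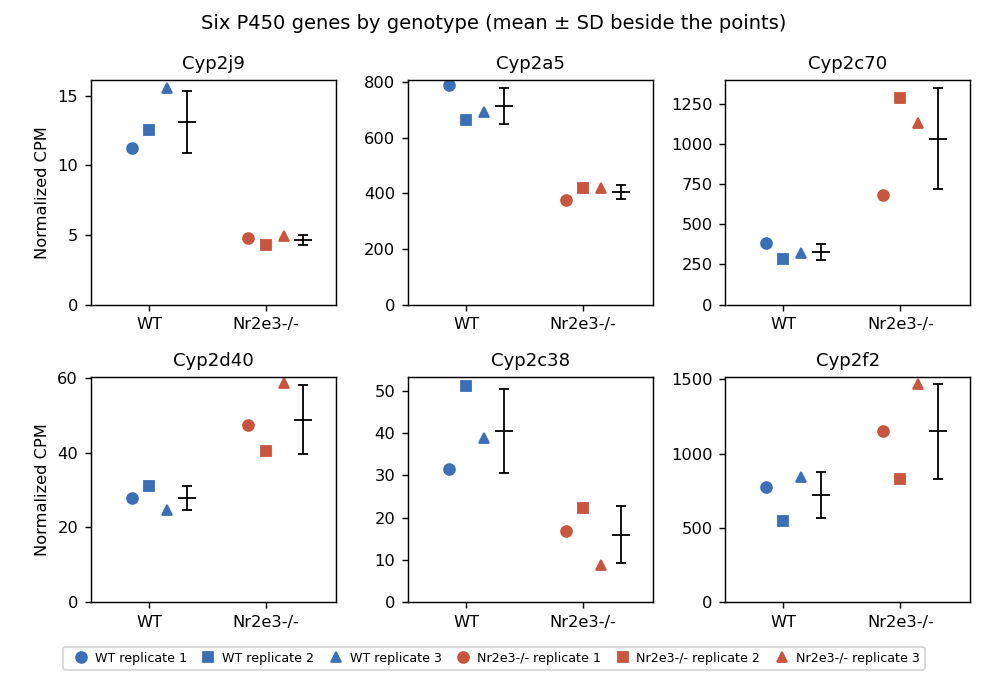
Normalized CPM (axes from 0) of Cyp2j9, Cyp2a5, Cyp2c70, Cyp2d40, Cyp2c38 and Cyp2f2, with 1 point per library and the mean ± SD (n = 3) of each genotype beside it. The genotypes do not overlap for the first 5 genes, and for Cyp2f2 Nr2e3-/- replicate 2 lies just under WT replicate 3.

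The Cyp2a subfamily sits on chromosome 7. Cyp2a5, a coumarin hydroxylase that also oxidizes nitrosamines (26835339 to 26843264), had 787, 662 and 693 CPM in WT and 375, 418 and 419 CPM in Nr2e3-/- tumors. Every Nr2e3-/- library lay below every WT library. The log2 fold change of Cyp2a5 was -0.82 (SE 0.12, edgeR adjusted p = 0.0844), past the threshold with DESeq2 (adjusted p = 2.37e-07), with limma-voom (adjusted p = 0.0134) and without Nr2e3-/- replicate 1 (edgeR adjusted p = 0.0116). The near-identical Cyp2a4, a steroid hydroxylase higher in females, had 1387, 937 and 166 CPM in WT and 490, 1232 and 394 CPM in Nr2e3-/- tumors. WT replicate 3 was lowest and WT replicate 1 highest, so the spread within each genotype exceeded the difference between them (log2 fold change -0.23, SE 0.73). Cyp2a22, at a low level, had 2.07, 3.69 and 2.22 CPM in WT and 1.39, 0.817 and 0.649 CPM in Nr2e3-/- tumors, without overlap (log2 fold change -1.51, SE 0.38, edgeR adjusted p = 0.117, and 0.0186 without Nr2e3-/- replicate 1). Cyp2a12, a steroid hydroxylase, had 333 ± 22.2 CPM in WT and 373 ± 35.0 CPM in Nr2e3-/- tumors (SD, n = 3).

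The Cyp2b genes are classical targets of CAR, and mouse Cyp2b9 and Cyp2b13 are higher in females. Cyp2b9 (26173350 to 26210661 on chromosome 7) had 71.1, 69.0 and 43.3 CPM in WT and 36.2, 42.3 and 28.7 CPM in Nr2e3-/- tumors, close to each other but without overlap (log2 fold change -0.77, SE 0.23, edgeR adjusted p = 0.137). Cyp2b13 ranged from 1.32 to 25.9 CPM within WT and from 0.149 to 3.71 CPM within Nr2e3-/- tumors, overlapping. Cyp2b10, the usual readout of CAR activity, had 4.95, 6.29 and 7.56 CPM in WT and 19.6, 0.780 and 11.7 CPM in Nr2e3-/- tumors. Its Nr2e3-/- libraries lay on both sides of all WT libraries. Cyp2b10 had a log2 fold change of 0.75 (SE 0.85), 1.32 without Nr2e3-/- replicate 2 and -0.04 without Nr2e3-/- replicate 1.

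The Cyp2c subfamily, with 15 members on chromosome 19, held the 3 largest positive log2 fold changes of all tested members, those of Cyp2c69, Cyp2c40 and Cyp2c70. Cyp2c70, which makes the muricholic acids of mouse bile (40153361 to 40187286), had 381, 285 and 318 CPM in WT and 681, 1286 and 1128 CPM in Nr2e3-/- tumors. The lowest Nr2e3-/- library, replicate 1, was still above the highest WT library. The log2 fold change was 1.65 (SE 0.25, edgeR adjusted p = 0.0844), past the threshold with DESeq2 (adjusted p = 6.05e-08), with limma-voom (adjusted p = 0.0106) and without Nr2e3-/- replicate 1 (edgeR adjusted p = 0.00193). Cyp2c50, the next member along the chromosome at 39.4 kb, had a log2 fold change of 0.04 (SE 0.16).

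Cyp2c38 (39389556 to 39463103) had 31.6, 51.3 and 38.8 CPM in WT and 16.8, 22.3 and 8.76 CPM in Nr2e3-/- tumors, again without overlap (log2 fold change -1.34, SE 0.34, edgeR adjusted p = 0.118). Its annotated span overlaps that of Cyp2c39, which lies on the other strand and had 1.48 ± 0.469 and 0.975 ± 0.346 CPM (SD, n = 3), so reads there could be split between them. Cyp2c67 had 112, 115 and 118 CPM in WT and 172, 143 and 141 CPM in Nr2e3-/- tumors (log2 fold change 0.40, SE 0.11, edgeR adjusted p = 0.133), a small difference without overlap in a gene that shares 52.8% of its 50-base stretches. The CAR-inducible epoxygenases Cyp2c29, Cyp2c37, Cyp2c50 and Cyp2c54 had log2 fold changes between -0.10 and 0.10 with SEs of 0.16 to 0.26. For Cyp2c29 the CPM were 1100, 1327 and 1373 in WT and 1850, 891 and 1332 in Nr2e3-/- tumors, the last 3 spanning the range of the first. Summed over the subfamily, the CPM were 2728, 3248 and 3195 in WT and 4188, 3681 and 3847 in Nr2e3-/- tumors. Cyp2c70 alone had a mean of 328 CPM in WT and 1032 CPM in Nr2e3-/- tumors.

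**Figure D4:**
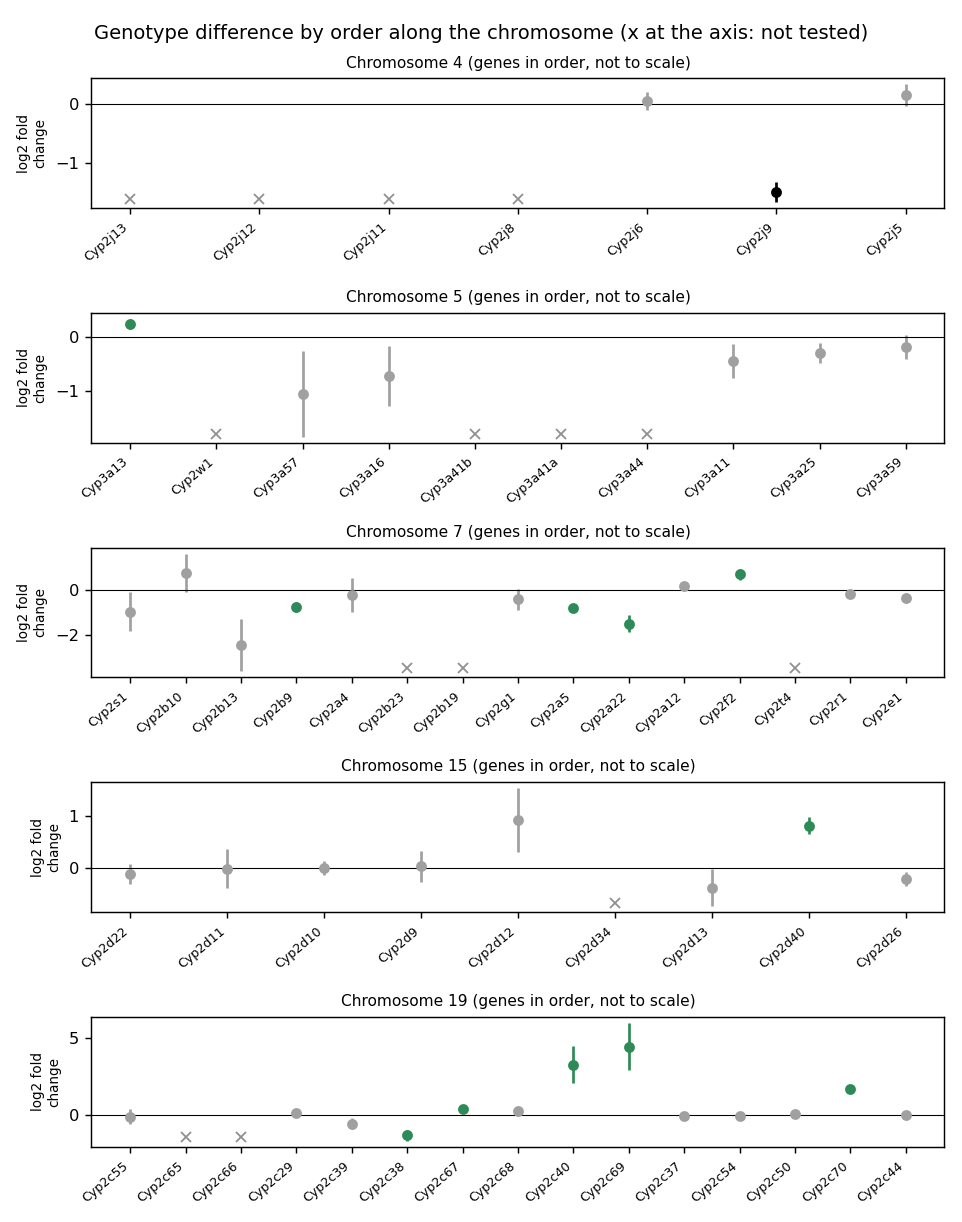
Log2 fold change of Nr2e3-/- over WT (bar: standard error) for members in their order along chromosomes 4, 5, 7, 15 and 19. Members that were not tested are crosses at the axis and carry no value. Colours mark an adjusted p under 0.05 (black), an unadjusted p under 0.05 (green) and other genes (grey). Cyp2j9 lies below 0 and its neighbours Cyp2j6 and Cyp2j5 near 0, and on chromosome 19 Cyp2c38 lies below 0 while Cyp2c40, Cyp2c69 and Cyp2c70 lie above.

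Cyp2c40 and Cyp2c69, both higher in females in mouse liver, differed between genotypes by 1 library. Cyp2c69 had 1.08, 1.15 and 0.659 CPM in WT and 1.26, 59.0 and 1.24 CPM in Nr2e3-/- tumors. Cyp2c40 had 1.54, 2.47 and 1.11 CPM in WT and 2.71, 43.5 and 1.84 CPM in Nr2e3-/- tumors. In both, Nr2e3-/- replicate 2 stood far above all other libraries. The transcripts of the pair are 97.7% identical, so how reads were divided between these genes is uncertain. The log2 fold changes of Cyp2c69 and Cyp2c40 were 4.43 (SE 1.54) and 3.25 (SE 1.20) with all libraries and 0.38 and 0.41 without Nr2e3-/- replicate 2. Without Nr2e3-/- replicate 1 the edgeR adjusted p of Cyp2c69 was 0.0384. Cyp3a44, also on the list of female-biased genes, had its 29 counts in the same library. On the same list, Cyp2a4 (1232 CPM) and Cyp2c39 (1.37 CPM) were within the WT range in that library, while Cyp2b9 (42.3 CPM), Cyp2b13 (0.149 CPM) and Cyp3a16 (0.149 CPM) were below it. Over the 10 female-biased members, 7 of them tested, the median log2 fold change was -0.58 with 2 above and 5 below 0, and 2 were higher (all genes 11.8%) and 1 lower (all genes 9.72%) at an unadjusted p under 0.05. The 2 higher were Cyp2c69 and Cyp2c40, which rest on Nr2e3-/- replicate 2. Limma-voom called 1 of the 7 tested, Cyp2b9, where it called 17.4% of all genes. DESeq2 fitted all 10 and also called Cyp2b9 alone, where it called 8.00% of all genes. It gave no p for Cyp2c69 and Cyp2c40, so it could not call them.

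**Figure D5:**
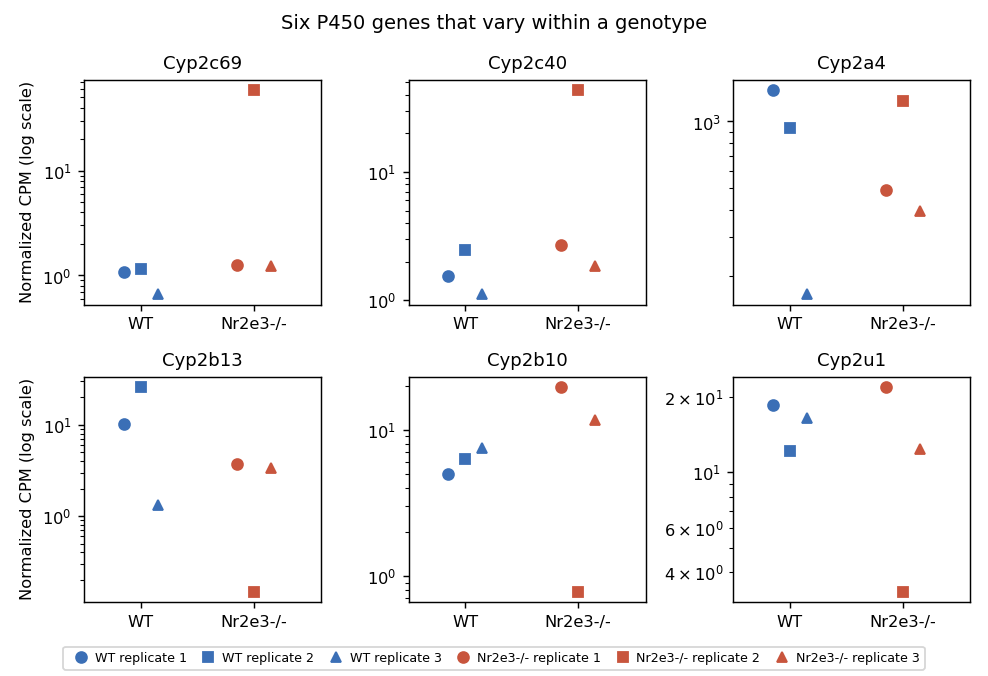
Normalized CPM (log axes) of Cyp2c69, Cyp2c40, Cyp2a4, Cyp2b13, Cyp2b10 and Cyp2u1, with 1 point per library. Nr2e3-/- replicate 2 (red square) is far above the others for Cyp2c69 and Cyp2c40, and far below for Cyp2b13, Cyp2b10 and Cyp2u1.

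Among the Cyp2d genes on chromosome 15, Cyp2d40 (82759833 to 82764122) had 28.0, 31.2 and 24.7 CPM in WT and 47.5, 40.4 and 58.6 CPM in Nr2e3-/- tumors, without overlap (log2 fold change 0.80, SE 0.16, edgeR adjusted p = 0.0963). It was past the threshold with DESeq2 (adjusted p = 0.00211) and without Nr2e3-/- replicate 1 (edgeR adjusted p = 0.0223). Cyp2d9, a male-biased steroid hydroxylase, had 601, 564 and 747 CPM in WT and 751, 376 and 828 CPM in Nr2e3-/- tumors, with a log2 fold change of 0.03 (SE 0.29). Cyp2d26, highest of the subfamily per length, had a log2 fold change of -0.22 (SE 0.13). Cyp2d13, which RefSeq lists as a transcribed pseudogene, had 83.3 ± 12.0 CPM in WT and 64.5 ± 34.9 CPM in Nr2e3-/- tumors (SD, n = 3). Over the 8 tested members the median log2 fold change was -0.0030, with 4 above and 4 below 0.

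Cyp2e1 (140763819 to 140774990 on chromosome 7) is expressed around the central vein. It had 5465, 7285 and 6488 CPM in WT and 5825, 3783 and 5297 CPM in Nr2e3-/- tumors. Nr2e3-/- replicate 2 was lowest and the groups overlapped (log2 fold change -0.37, SE 0.21, edgeR adjusted p = 0.339). Leaving out Nr2e3-/- replicate 2 gave Cyp2e1 a log2 fold change of -0.20. The 7 members on the pericentral list had log2 fold changes with a median of -0.10, 2 above and 5 below 0. The lone periportal member, Cyp2f2 (27119955 to 27133660 on chromosome 7), which oxidizes naphthalene, had 771, 543 and 839 CPM in WT and 1154, 830 and 1469 CPM in Nr2e3-/- tumors. Nr2e3-/- replicate 2 lay just below WT replicate 3, so the groups touched. The log2 fold change of Cyp2f2 was 0.68 (SE 0.25, edgeR adjusted p = 0.186 and 0.0439 from limma-voom).

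The Cyp3a genes, the main drug-oxidizing enzymes induced through PXR, lie on chromosome 5. Cyp3a11 (145854607 to 145879854) had 2962, 2776 and 2867 CPM in WT and 2270, 1129 and 2892 CPM in Nr2e3-/- tumors. WT libraries lay close together, and Nr2e3-/- replicate 2 was far below them while replicate 3 was within their range. Cyp3a11 had a log2 fold change of -0.45 (SE 0.31, edgeR adjusted p = 0.425) and -0.15 without Nr2e3-/- replicate 2. Cyp3a13 had 176, 174 and 177 CPM in WT and 216, 209 and 194 CPM in Nr2e3-/- tumors, a difference of 0.23 on the log2 scale (SE 0.10, edgeR adjusted p = 0.231) without overlap. Cyp3a25 had 455 ± 48.7 and 369 ± 83.6 CPM (SD, n = 3) with a log2 fold change of -0.30. The other tested members of the subfamily had log2 fold changes from -1.06 to -0.19. Of the 9 members on the CAR and PXR inducible list, 4 were above and 5 below 0 with a median of -0.07, and 1 was higher (Cyp3a13, all genes 11.8%) and 1 lower (Cyp2a5, all genes 9.72%) at an unadjusted p under 0.05.

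Outside these clusters, Cyp2u1 on chromosome 3, male-biased in mouse liver, had 18.7, 12.2 and 16.5 CPM in WT and 21.9, 3.34 and 12.4 CPM in Nr2e3-/- tumors. The log2 fold change was -0.35 (SE 0.57) and 0.12 without Nr2e3-/- replicate 2, which was the lowest library. Cyp2r1 had 17.0 ± 1.81 and 15.1 ± 1.50 CPM (SD, n = 3).

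The spread within a genotype was also compared with that of other genes. The ratio of the highest to the lowest Nr2e3-/- library had a median of 1.77 over members and 1.42 over all genes, and exceeded 3 for 10 members (23.3%, against 9.20% of all genes). Among the 10 were genes with low counts in Nr2e3-/- replicates 1, 2 and 3, as Cyp2s1 (13, 2 and 1), Cyp3a16 (11, 4 and 15) and Cyp2g1 (12, 28 and 5). The near-identical Cyp2c40 and Cyp2c69 were also among them, and the share was not adjusted for low counts or shared sequence. Within WT the medians were 1.39 and 1.21, and 4 members exceeded 3 (9.30%, against 2.36% of all genes). Nr2e3-/- replicate 2 was the lowest library for 17 of the 43 members (39.5%, against 24.3% of all genes), and Nr2e3-/- replicate 1 was the highest for 16 (37.2%, against 16.9%). These shares describe the libraries and were not tested.

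The genes that serve and control the P450 enzymes were taken from lists written by hand. The 6 electron donors and membrane partners had log2 fold changes with a median of -0.00091, 3 above and 3 below 0. Por, the P450 oxidoreductase, had 380 ± 72.5 CPM in WT and 445 ± 14.3 CPM in Nr2e3-/- tumors (SD, n = 3). Pgrmc2, a heme-binding membrane partner, was lower at an unadjusted p under 0.05 (log2 fold change -0.36, SE 0.12, edgeR adjusted p = 0.162 and 0.0286 from limma-voom). Of 19 transcription factors, 18 were tested, with a median log2 fold change of -0.26, 7 above and 11 below 0, and 4 higher (all genes 11.8%) and 3 lower (all genes 9.72%) at an unadjusted p under 0.05. DESeq2 called 3 of them (Cebpb higher, Cebpa and Foxa1 lower, all genes 8.00%) and limma-voom 9 (all genes 17.4%). Nr1i3, which encodes CAR, had a log2 fold change of -0.84 (SE 0.38), and Nr1i2, which encodes PXR, -0.55 (SE 0.28).

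Acute phase genes, which the inflamed liver raises, also differed between libraries. Over 9 such genes the summed CPM ranged from 2636 to 4739 in WT and from 3500 to 10367 in Nr2e3-/- tumors, highest in Nr2e3-/- replicate 2. All 9 had log2 fold changes above 0, with a median of 1.47, and 7 were higher at an unadjusted p under 0.05 (all genes 11.8%). DESeq2 called 5 (all genes 4.93% higher) and limma-voom 7 of them (all genes 17.4% in either direction), all higher. Saa1, a serum amyloid gene, had 49.3, 28.0 and 19.9 CPM in WT and 138, 1028 and 1090 CPM in Nr2e3-/- tumors. Marker lists of other cells had median log2 fold changes of 0.23 for bile duct (4 genes tested), 0.32 for macrophages (3), -0.43 for lymphocytes (3), 0.13 for endothelium (4), -0.32 for stroma (4) and 0.51 for red cells (3), and -0.02 for hepatocytes (5). Directions were mixed for hepatocytes (2 above and 3 below 0), bile duct (2 and 2), endothelium (3 and 1), lymphocytes (1 and 2) and stroma (1 and 3). All 3 macrophage markers tested (log2 fold changes 0.22 to 0.33) and all 3 red cell markers (0.48 to 0.70) were above 0. DESeq2 (all genes 8.00%) and limma-voom (all genes 17.4%) both called Tat (hepatocyte, log2 fold change 1.30), Epcam (bile duct, 1.58) and Lyve1 (endothelium, 0.82). Limma-voom also called Dcn (stroma, -0.39), and edgeR called none of these genes. The part of the acute phase and marker genes in the P450 values was not tested.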

How the data were processed

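The authors sequenced single-end TruSeq libraries, aligned reads to mm10 (GRCm38) with TopHat and counted them per gene with featureCounts. The deposited values used here are raw counts. Tool versions, the gene annotation and the use of strand are not given in the sources used here. The authors' normalized table and their table of fold changes and p-values were not used. Genotype came from the labels, dose and age from the study's methods, and the week from a figure legend of the study. The study's methods give 3 mice of each genotype as the source of the tumors, and each library was treated as 1 mouse.

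The count model was that of edgeR 4.0.16, run in R 4.3.3 (filterByExpr with minimum count 10 and total 15, TMM, quasi-likelihood F test, two-sided, genotype as the only term). An adjusted p under 0.05 was a call. For single genes no exact permutation test was used, since 3 against 3 libraries cannot reach that threshold. RPKM used the union of exons in GENCODE M21, available for 56 members. Positions came from RefSeq for all 57 members, 1 (Cyp2c44) by another symbol. The alternatives tried were DESeq2 1.42.0, limma-voom (limma 3.58.1), RLE and upper quartile scaling, other filters, a replicate block and leaving out each library. The pipeline was tested on simulated data. Tables and figures used Python 3.11.15, pandas 2.3.3 and matplotlib 3.10.9.

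Named genes were the top gene per length of each subfamily, members called, the 20 with the smallest p and members of the lists. The members, lists and tests were chosen with earlier results of these data known, and the lists were written from memory.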

Additional observations from a re-analysis of the deposited data

How the results depend on the processing

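With the number of all genes called at 13 and of members at 1, the counts were 8 and 0 with upper quartile normalization, 1096 and 8 with DESeq2, 2360 and 10 with limma-voom, 70 and 3 without a filter, 7 and 0 with at least 10 counts in every library, and 0 to 3022 and 0 to 8 when single libraries were left out. No clear pairing of the tumors by replicate number was seen, as deviations from the group means correlated at -0.08, 0.22 and 0.02 within replicates 1, 2 and 3. With 3 libraries per group these values cannot exclude a pairing. With the replicate block edgeR called 0 genes and 0 members, and the adjusted p of Cyp2j9 was 0.0999. At an unadjusted p under 0.05 the members were 4 higher with limma-voom, and 3 to 6 higher and 5 to 8 lower when single libraries were left out. Cyp2j9 lost its call in 8 of 13 alternatives, its adjusted p ranging from 6.65e-09 (DESeq2) to 0.286 (without WT replicate 2).

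Of 35 named genes tested, 24 kept their direction in every alternative and 11 did not. The log2 fold change of Cyp2a4 was 0.073 with the replicate block, that of Cyp2d9 -0.037 with it and -0.051 with upper quartile normalization, and those of Cyp2c50 and Cyp2j6 -0.042 and -0.031 with the latter. That of Cyp2j6 was -0.078 with limma-voom. When single libraries were left out, the log2 fold changes ranged from -0.91 to 0.35 for Cyp2a4, -0.038 to 1.32 for Cyp2b10, -0.18 to 0.33 for Cyp2c29, -0.28 to 0.092 for Cyp2c37, -0.064 to 0.14 for Cyp2c50, -0.24 to 0.093 for Cyp2c54, -0.69 to 0.27 for Cyp2c55, -0.18 to 0.31 for Cyp2d9, -0.046 to 0.30 for Cyp2j5, -0.12 to 0.14 for Cyp2j6 and -1.02 to 0.12 for Cyp2u1. With the longest transcript as length, the WT levels were 3498 RPKM for Cyp2e1, 8.99 for Cyp2r1, 0.181 for Cyp2s1 and 1024 for Cyp3a11. The causes were not tested. Low members are limited by depth, since 3 counts are 0.102 to 0.199 CPM.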

Other observations

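Pseudogenes of these families named with the ending -ps and 1 gene with a double subfamily letter were outside the members. Cyp2d37-ps had 25.6, 31.8 and 26.7 CPM in WT and 34.4, 14.96 and 20.7 CPM in Nr2e3-/- tumors, a level like that of Cyp2d40 as raw CPM, with overlapping groups (log2 fold change -0.27, adjusted p = 0.599 from edgeR). Cyp2c53-ps had 0.461, 0.304 and 0.139 CPM in WT and 2.38, 0.223 and 0.757 CPM in Nr2e3-/- tumors, highest in Nr2e3-/- replicate 1 (log2 fold change 1.81, adjusted p = 0.269 from edgeR). Cyp2ab1 had 0 to 3 counts per library.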
